A study of Mus musculus with 2 samples.

Results

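Among the fibroblasts of the adult mouse heart, a small set of cells carried UMIs of several of the genes Adam33, Vegfd, Alkal2, Rspo1, Cxcl5 and Aox3. A cell was counted as a member when it had at least 1 UMI in at least 3 of these 6 genes and lay inside a fibroblast gate. The gate asked that Dcn, Col1a1, Col1a2 and Col3a1 together make up at least 0.3% of the UMIs and that Ptprc and Pecam1 together have at most 1 UMI. The rule found 65 members among 5423 gated fibroblasts of the TAC library and 276 among 6227 of the Sham library, or 341 of 11650 gated fibroblasts and of 15964 cells kept in all. Members were thus chosen by measured UMIs of these 6 genes, whose levels are given as a description. Cells with 3 rule genes, just inside the threshold, numbered 51 in the TAC library and 163 in the Sham library, and cells with 2, just outside it, numbered 254 in the TAC library and 432 in the Sham library.

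The cells were non-cardiomyocytes released from hearts of male C57BL6/J wildtype mice by perfusion with collagenases. They were profiled by droplet single-cell RNA sequencing, in which a UMI (unique molecular identifier) stands for 1 captured RNA molecule. TAC, transverse aortic constriction, is an operation that narrows the aortic arch and raises the pressure load of the left ventricle, and the TAC library was made 20 days after it; the Sham library was made 20 days after a sham operation. Each operation had 1 library, the labels do not give the number of hearts or the age of the mice, and cells of 1 library are not replicates, so no test was possible and every interval covers counting error alone.

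The 6 genes encode proteins of different kinds. Vegfd is a growth factor that binds VEGFR3 on lymphatic endothelium, Alkal2 is a ligand of the receptor tyrosine kinases ALK and LTK, Rspo1 is an R-spondin that strengthens WNT signalling through LGR receptors, and Cxcl5 is a chemokine that attracts neutrophils through CXCR2. Adam33 is a membrane-anchored metalloprotease and Aox3 is an aldehyde oxidase. Fibroblasts of the heart build and maintain the collagen matrix, and after pressure overload many of them take on an activated state marked by Postn and Cilp.

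In the GENCODE M21 annotation of GRCm38, the 6 genes lie on 6 different chromosomes. Adam33 lies at chr2:131050591-131063814, Vegfd at chrX:164373378-164402650, Alkal2 at chr12:30884322-30893854, Rspo1 at chr4:124986430-125009099, Cxcl5 at chr5:90759360-90761624 and Aox3 at chr1:58113130-58200698. Because the rule joins these genes by their RNA, the 250 bases before the RefSeq start of the 4 genes matched in the RefSeq promoter table (build GRCm38.p6) are printed here, 5′ to 3′ on the plus strand, with matches to the motifs named after them in capitals; Adam33 and Cxcl5 were not matched.
Vegfd: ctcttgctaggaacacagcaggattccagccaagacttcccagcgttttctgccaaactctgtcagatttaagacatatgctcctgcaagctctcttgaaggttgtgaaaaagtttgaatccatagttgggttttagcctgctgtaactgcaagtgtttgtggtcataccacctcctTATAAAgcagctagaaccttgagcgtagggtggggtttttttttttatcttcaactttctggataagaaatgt
Alkal2: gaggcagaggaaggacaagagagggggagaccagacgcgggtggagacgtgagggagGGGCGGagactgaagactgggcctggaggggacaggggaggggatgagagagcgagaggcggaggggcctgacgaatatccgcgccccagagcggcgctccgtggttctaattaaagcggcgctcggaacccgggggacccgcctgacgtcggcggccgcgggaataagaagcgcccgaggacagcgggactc
Rspo1: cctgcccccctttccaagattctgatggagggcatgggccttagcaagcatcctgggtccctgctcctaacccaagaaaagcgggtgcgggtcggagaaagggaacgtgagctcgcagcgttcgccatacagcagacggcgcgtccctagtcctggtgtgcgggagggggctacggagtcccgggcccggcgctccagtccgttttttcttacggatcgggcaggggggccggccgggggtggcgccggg
Aox3: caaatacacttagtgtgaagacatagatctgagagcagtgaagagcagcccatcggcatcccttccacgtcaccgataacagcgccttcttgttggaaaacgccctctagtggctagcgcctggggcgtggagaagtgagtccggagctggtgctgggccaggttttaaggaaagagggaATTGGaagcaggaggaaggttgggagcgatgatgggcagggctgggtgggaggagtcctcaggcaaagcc
The windows are chrX:164373272-164373521 for Vegfd, chr12:30884074-30884323 for Alkal2, chr4:124986180-124986429 for Rspo1 and chr1:58112886-58113135 for Aox3. The RefSeq starts differ from the GENCODE starts given above, so the last 144 bases of the Vegfd window, which hold its TATAAA, the last 6 of the Aox3 window and the last 2 of the Alkal2 window lie inside the gene as GENCODE places it. The motifs searched on both strands were TATAAA (known as the TATA box), CCAAT (bound by NF-Y), GGGCGG (bound by Sp factors), TGANTCA (bound by AP-1 factors), CAGCTG (an E-box) and CTTTGAT (bound by TCF and LEF factors), and no 2 matches overlap in these windows. Vegfd had 1 TATAAA, a sequence found in 13% of 27025 promoter windows of this length, and Alkal2 had 1 GGGCGG, found in 32.9%. Aox3 had 1 CCAAT, on the minus strand, found in 34.5%, and Rspo1 had no match to any of the 6. No motif was shared by 2 of the 4 windows. Their G and C content was 42.4% for Vegfd, 68% for Alkal2, 66.8% for Rspo1 and 56.4% for Aox3, against a median of 52% over all windows, so the 4 windows differ in composition as well.

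Members made up 1.20% of gated fibroblasts in the TAC library (exact Clopper-Pearson 95% interval 0.926 to 1.53%) and 4.43% in the Sham library (3.93 to 4.97%). The libraries differ in depth, and the difference was wider at equal depth. The median gated cell had 14358 UMIs among TAC members and 4296.5 among Sham members, and 12042 among the other TAC fibroblasts and 5021 among the other Sham fibroblasts. TAC members were thus deeper than the fibroblasts around them, and Sham members shallower. When each gated fibroblast was thinned to 3800 UMIs and the rule applied afterwards, 11 of 5178 TAC cells were members, a share of 0.212% (0.106 to 0.380%). In the Sham library 122 of 5039 thinned cells were members, a share of 2.42% (2.01 to 2.88%), so the thinned TAC share was 0.0877 times the Sham share. With 1 library for each operation, the operation and the library cannot be told apart. Scrublet called 0 TAC and 3 Sham members doublets. The libraries shared 15 cell barcodes among all deposited barcodes, before the cell filter, of which 0 belonged to members. Outside the fibroblast gate, 5 TAC cells had 3 rule genes and no TAC cell had more, while 3 Sham cells had 4 and 1 had 6.

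The label of these cells as fibroblasts held in the markers of Sham members. In the TAC library 4 of the 65 members also carried mesothelial and epicardial markers, as described further below. Pdgfra, the receptor used to mark cardiac fibroblasts, stood at 326 CPM (the UMIs of a gene summed over the cells of a group and scaled to the same total in every group) in Sham members and 308 CPM in the other Sham fibroblasts. Tcf21, a transcription factor of resident cardiac fibroblasts, stood at 524 CPM in Sham members and 507 CPM in the others. Both levels were close between the groups. In the TAC library Pdgfra stood at 238 CPM in members and 275 CPM in the others. Of the 10 general fibroblast markers, all measured in Sham members, Fbln1 was at least 2-fold higher (3806 CPM in members and 1545 CPM in the others) and Fbln2 at least 2-fold lower (519 and 1217 CPM). Fbln1 and Fbln2 encode fibulins, glycoproteins of the matrix.

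Among the 6 rule genes, Vegfd was the most abundant in members, at 449 CPM in TAC members and 583 CPM in Sham members. In the other TAC fibroblasts it stood at 32.6 CPM. Alkal2 stood at 66.2 CPM in TAC members and 500.1 CPM in Sham members, and at 3.94 CPM in the other TAC fibroblasts and 59.9 CPM in the other Sham fibroblasts. Since the rule was applied to deeper cells in TAC, the levels of the rule genes in members are not set against each other between the libraries. Adam33 was the rule gene with the lowest level outside the members, at 0.860 CPM in the other TAC fibroblasts and 2.17 CPM in the other Sham fibroblasts, against 50.7 CPM in TAC members and 163 CPM in Sham members. Rspo1 stood at 109 CPM in TAC members and 172 CPM in Sham members. The TAC levels include the 4 members with mesothelial markers, all of which had Adam33, Vegfd and Rspo1 UMIs. Cxcl5 stood at 71.4 CPM in TAC members and 197 CPM in Sham members, and Aox3 at 27.9 CPM in TAC members and 139 CPM in Sham members.

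Some of the genes were seen outside fibroblasts as well. Adam33 reached 23.4 CPM in TAC macrophages and 46.4 CPM in Sham macrophages, and 22.1 CPM in TAC B cells and 47.4 CPM in Sham B cells, all of them above the other fibroblasts of the same library. At equal depth an Adam33 UMI was seen in 21.5% of TAC members and 7.68% of TAC macrophages, and in 32.6% of Sham members and 14.0% of Sham macrophages. Alkal2 reached 84.7 CPM in TAC pericytes, above its level in TAC members. Aox3 was at or below 4.39 CPM in every class of other cells measured in either library.

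The combinations of genes in members were uneven. Vegfd and Alkal2 were seen together in 36 of 65 TAC members and in 204 of 276 Sham members. The most common set in TAC members was Vegfd, Alkal2 and Cxcl5 with no other rule gene, held by 14 cells, followed by Adam33, Vegfd and Rspo1, held by 11. Of these 11 cells, 4 were the TAC members with mesothelial markers. In Sham members it was Vegfd, Alkal2 and Rspo1, held by 45 cells. All 6 genes were seen in 0 TAC members and in 6 Sham members.

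Each rule gene was then measured in cells that had been chosen without it, by at least 3 UMI-positive genes among the other 5. In the Sham library every one of the 6 genes was higher in these cells. Adam33 stood at 121.9 CPM in the 234 chosen Sham cells and 4.54 CPM in the other fibroblasts, a 26.8-fold difference (exact 95% interval of the ratio 21.1 to 34.1). The smallest Sham difference was that of Alkal2, 541 CPM in chosen cells and 68.1 CPM in the others, 7.95-fold (7.11 to 8.87). In the TAC library, with 18 to 54 chosen cells for each gene, the differences ran from 4.29-fold for Cxcl5 (2.73 to 6.45) to 13.8-fold for Aox3 (7.05 to 25.1). At equal depth, 67.8% of chosen Sham cells had a Vegfd UMI, against 9.65% of the others, and 26.8% had an Adam33 UMI, against 0.636%. With the choice made at full depth, each gene was thus higher in cells chosen by the rest of the list in both libraries. In TAC the chosen cells were too few for narrow intervals. The 6 genes had been listed with earlier results of these data known, so these values are a description and not separate support for the list. When the choice itself was made on thinned cells, the median log2 ratio of CPM + 1 over the 6 genes in TAC was -1.25. The higher TAC levels were thus not seen under that choice. The TAC cells chosen in this way all lie within the 11 thinned TAC members, too few to give a direction.

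**Figure D1:**
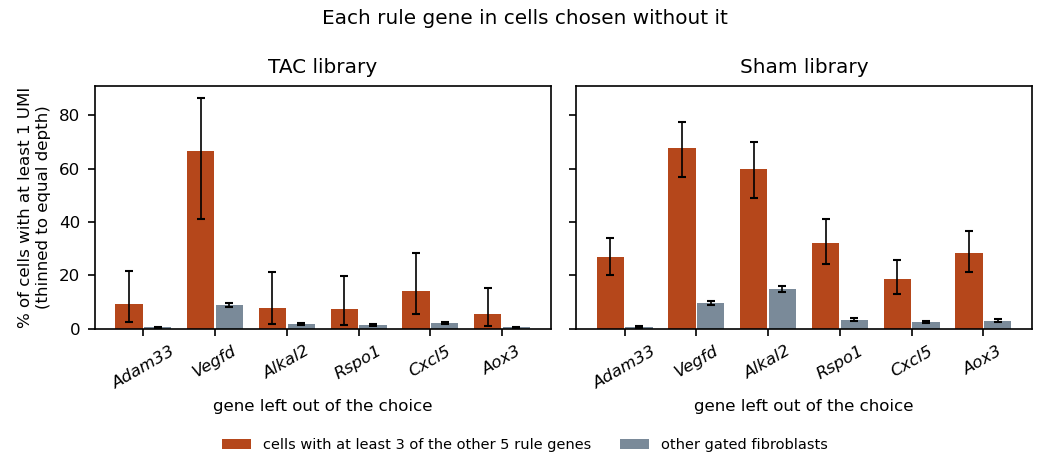
Bars give the percent of cells with at least 1 UMI of a rule gene after thinning to equal depth, with exact 95% binomial intervals for counting error, in cells with at least 3 of the other 5 rule genes and in the other gated fibroblasts. Vegfd shows the highest share in both libraries (66.7% of chosen TAC cells and 67.8% of chosen Sham cells), and the TAC intervals are wide.

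Members also lay together by genes outside the rule and the gate. The 6 rule genes had been listed with earlier results of these data known. The neighbour and cluster values are thus a description and not separate support for the set. Gated fibroblasts were placed by 2000 variable genes, without the 6 rule and 6 gate genes, and the 15 nearest neighbours of each cell were counted. Of the neighbours of a TAC member, 11.4% on average were members, against 1.13% for other TAC fibroblasts of like depth. Of the neighbours of a Sham member, 45.9% on average were members, against 2.61% for other Sham fibroblasts of like depth. In the Sham library the share went up step by step with the number of rule genes, from 0.786% around cells with 0 and 12.8% around cells with 2 to 35.8% around cells with 3 and 70.7% around cells with 5. Among Sham members 12.7% had no member among their neighbours.

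Clustering of the same cells put 151 of the 276 Sham members into 1 cluster of 238 cells, 63.4% of which were members. The rule genes had no part in the clustering. In this cluster Adam33 stood at 251 CPM, against 4.43 CPM in the cluster of 800 cells that held 44 further members, and Vegfd stood at 785 CPM, against 102 CPM there. Members were chosen by UMIs of these genes and made up 63.4% of the 1st cluster and 5.5% of the 2nd. These 2 contrasts are thus tied to the rule. Leading genes of the cluster of 238 cells were Sult1e1, a sulfotransferase that inactivates oestrogen, Shisa9, Slc38a5, Wt1, Sntg1 and Lypd1. A further 41 members lay in a cluster of 813 cells led by Hp, Fst and Igfbp3, so members were not confined to the densest cluster. The size of the cluster with most members depended on the graph: with an approximate neighbour graph at the same resolution of 1 it held 489 cells and 205 members, and over the other 4 settings tried (either graph, resolutions 0.5 and 2) it held 236 to 250 cells and 146 to 159 members. In the TAC library 41 of 65 members lay in a cluster of 729 cells, where they made up 5.62%. Over the other 5 settings this TAC cluster held 421 to 1156 cells and 28 to 48 members.

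**Figure D2:**
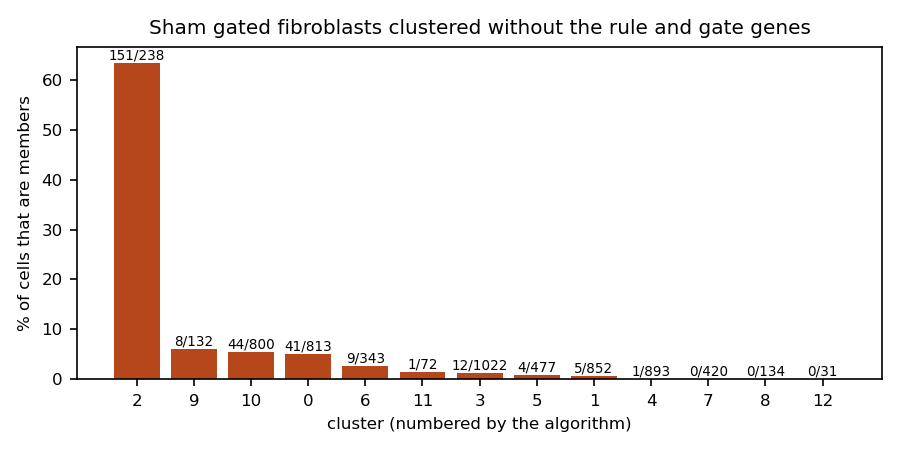
Bars give the percent of cells in each cluster of Sham gated fibroblasts that are members, with members and cells above each bar; the cluster numbers are arbitrary. In 1 cluster 151 of 238 cells are members, and in no other do members exceed 6.06%.

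Sham members were then set against the other Sham fibroblasts in genes that had not chosen them. Of 3626 genes with at least 50 CPM in either group, 104 were at least 2-fold higher in members (2.87%) and 76 at least 2-fold lower (2.10%). The 15 genes higher in members that are named here differ in their roles. Ptn, pleiotrophin, a heparin-binding growth factor, stood at 1265 CPM in members and 119.5 CPM in the others, 10.6-fold higher (exact interval 9.99 to 11.2), and was seen in 65.2% of members and 16.6% of others. Gpc3, glypican 3, a heparan sulfate proteoglycan of the cell surface, stood at 272 CPM in members and 37.5 CPM in the others. Gucy1a1, a subunit of soluble guanylate cyclase, the receptor of nitric oxide, stood at 274 CPM in members and 38.2 CPM in the others. These 3 genes were abundant in members and seen in 48.2% to 65.2% of them.

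The steepest differences were in genes of low level outside the members. Shisa9, a partner of glutamate receptors in neurons, stood at 53.3 CPM in members and 1.17 CPM in the others, 45.7-fold higher (30.2 to 70.2). Slc38a5, an amino acid transporter, stood at 87.3 CPM in members and 2.56 CPM in the others, 34.1-fold higher (25.5 to 46.0). Cpz, a carboxypeptidase that binds WNT proteins, stood at 83.6 CPM in members and 3.53 CPM in the others. Ism1, isthmin, a secreted protein, stood at 88.0 CPM in members and 4.40 CPM in the others. They were seen in 17.4% to 29.7% of members, and in at most 1.92% of the others.

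The other genes in this group of 15 were Mest, Fbn2, Bambi, Gnai1, Pdgfd, C4b, Sema3d and Stc2. Bambi, a decoy receptor of the TGF-beta family, stood at 266 CPM in members and 39.9 CPM in the others, and Stc2, stanniocalcin 2, at 187 CPM in members and 33.9 CPM in the others. Fbn2, a fibrillin of elastic microfibrils, stood at 68.1 CPM in members and 6.64 CPM in the others. Among the 15 the fold was lowest for Stc2, at 5.53 (4.80 to 6.35).

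The genes named as lower in Sham members than in the other Sham fibroblasts are described next. Aspn, asporin, a small proteoglycan that binds collagen, stood at 104 CPM in members and 532 CPM in the others, 5.14-fold lower (4.35 to 6.11). Ccl7, a chemokine for monocytes, stood at 22.2 CPM in members and 178 CPM in the others, the steepest of the ratios on this side, and Ccl2, of the same family, at 65.8 CPM in members and 251 CPM in the others. Col8a1, a chain of collagen VIII, stood at 63.6 CPM in members and 279 CPM in the others. Ccl2 was seen in 10.1% of members and 11.1% of the others, shares that were close. Myoc, myocilin, a secreted glycoprotein, stood at 71.8 CPM in members and 307 CPM in the others, and Pla1a, a phospholipase, at 79.2 CPM in members and 275 CPM in the others. The rest of the 15 were Foxs1, Hmcn2, Efhd1, Synm, Meox1, Ccnd1, Jup, Calcrl and Ly6c1, with log2 ratios of CPM + 1, members over others, of -1.79 to -2.48.

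**Figure D3:**
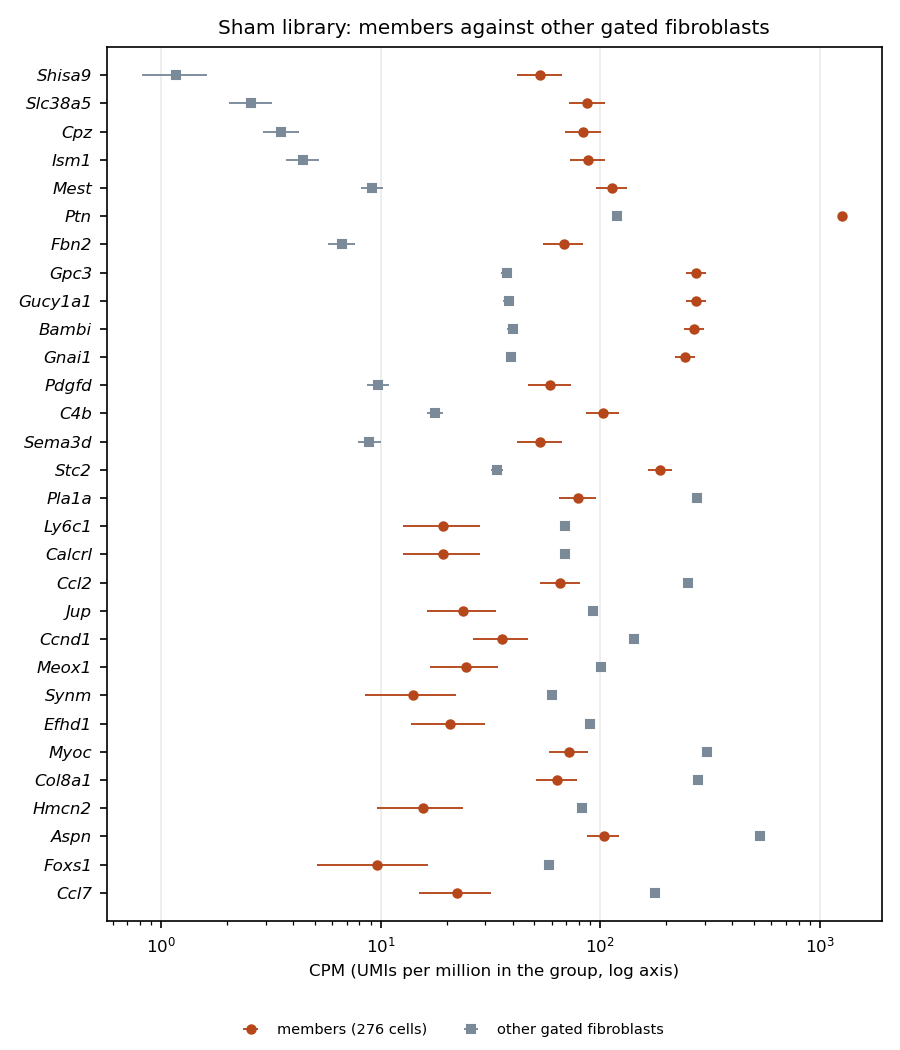
Points give CPM on a log axis in Sham members and in the other Sham gated fibroblasts for the 30 genes named by rule, with exact 95% Poisson intervals for counting error; genes run from the highest log2 ratio at the top to the lowest at the bottom. Ptn is the most abundant of the genes higher in members, at 1265 CPM.

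These genes followed the number of rule genes in a graded way. They had been named for differing between Sham cells with at least 3 rule genes and the rest. Part of the grading was thus set by that choice, and no share over all genes is given beside the counts. Over Sham cells with 0, 1, 2 and 3 rule genes, 14 of the 15 genes higher in members went up at every step, and 13 of the 15 lower genes went down at every step. Ptn stood at 73.3, 156, 419.6 and 999 CPM in Sham cells with 0, 1, 2 and 3 rule genes, and at 1240 CPM with 4 and 2488 CPM with 5 or 6. Aspn stood at 632, 360.0, 185 and 94.7 CPM over 0 to 3 rule genes. The cells just outside the threshold, with 2 rule genes, thus lay between the members and the rest. The exceptions over these steps were Sema3d on the higher side (8.35 CPM with 0 and 8.30 CPM with 1) and Ccl2 and Ccl7 on the lower side, both of which stood higher with 1 rule gene than with 0. C4b, complement 4, stood at 138 CPM with 3 rule genes and 53.6 CPM with 4 to 6, and with at least 4 rule genes asked of members its log2 ratio was 1.33, against 2.47.

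**Figure D4:**
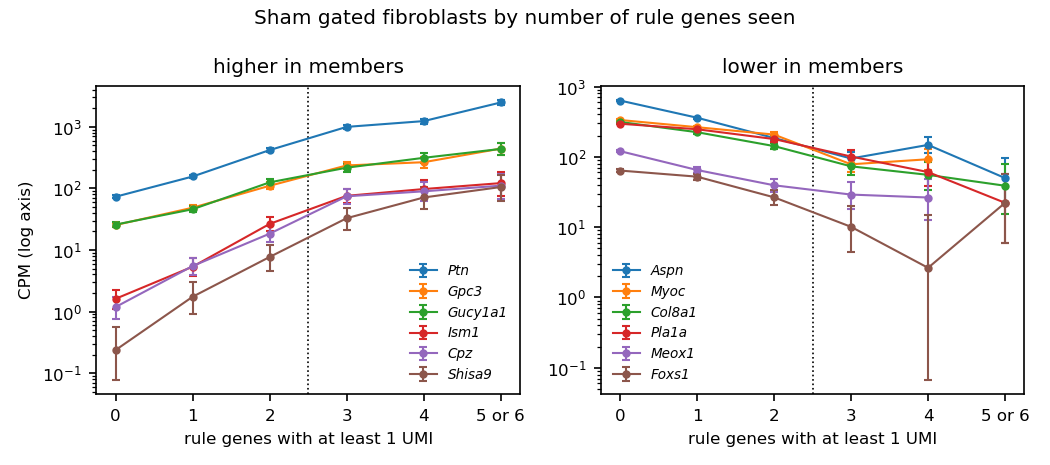
Lines give CPM on a log axis, with exact 95% Poisson intervals for counting error, in Sham gated fibroblasts by the number of rule genes seen, and the dotted line is the threshold of membership; points with 0 UMIs are not drawn. Ptn reaches 2488 CPM in cells with 5 or 6 rule genes.

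The Sham members themselves were also divided by whether they had a UMI of each rule gene. The 124 members with an Adam33 UMI had higher levels of all 15 genes than the 152 members without, by at least 2-fold for 9, and lower levels of all 15 genes on the low side, by at least 2-fold for 11. Ptn stood at 1936 CPM in members with Adam33 and 828 CPM in members without, Fbn2 at 124 CPM with and 31.8 CPM without, and Myoc at 9.37 CPM with and 112 CPM without. The eotaxin gene Ccl11 stood at 46.9 CPM with and 266 CPM without. The members with Adam33 were the shallower ones, at a median of 3842 UMIs against 4941, and had 3.98 rule genes on average against 3.24. Cxcl5 made a similar division, with 14 of 15 genes higher and 13 of 15 lower in the 96 members that had it. Vegfd, Alkal2, Rspo1 and Aox3 made none of this kind, with 5 to 7 of the 15 genes higher in the members that had them. A member without a given rule gene had to hold at least 3 of the other 5. The named genes also came from these same members. The divisions are thus tied to the rule, are given as a description, and do not rank the rule genes.

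The ligand and receptor lists, which were chosen with earlier results of these data known, are given with the counts over 8895 genes of at least 10 CPM, where 3.23% were at least 2-fold higher in Sham members and 2.86% at least 2-fold lower. R-spondins and WNT genes held several of the larger ratios. Rspo3, an R-spondin like the rule gene Rspo1, stood at 38.5 CPM in Sham members and 2.10 CPM in the others (14.5% and 0.756% of cells). Of 5 WNT ligands measured, Wnt5a (50.3 CPM in members, 11.8 in the others) and Wnt6 (24.4 and 6.51 CPM) were at least 2-fold higher and 0 at least 2-fold lower. Of 8 WNT modulators and targets measured, 3 were at least 2-fold higher and 2 lower. The 3 were Nkd1, a feedback inhibitor of WNT signalling, at 40.0 CPM in members and 4.05 CPM in the others, Axin2, another, at 18.5 and 3.43 CPM, and Sfrp2, a secreted WNT binder, at 715 and 156 CPM. Lgr4, a receptor of R-spondins, was lower in members, at 4.44 CPM against 15.8 CPM. Of 7 VEGF ligands and receptors measured, 1 was at least 2-fold higher and 2 lower, with a median log2 ratio of 0.02. The higher one was Flt1, a receptor of VEGF-A, which had 14 UMIs in Sham members, 10.4 CPM against 1.00 CPM in the others. The lower ones were Vegfa (17.0 against 49.4 CPM) and Pgf, placental growth factor (74.7 against 172 CPM).

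Regulators of the BMP and activin branch of the TGF-beta family showed 5 of 17 measured genes at least 2-fold higher in Sham members and 2 lower. Chrdl1, a BMP antagonist, stood at 16.3 CPM in members and 0.842 CPM in the others. Fst, follistatin, which binds activin, stood at 134 CPM in members and 33.6 CPM in the others. Gdf10, a ligand of the BMP family, stood at 23.7 and 3.69 CPM, and Id2, a target of BMP signalling, at 1048 and 379 CPM. Antagonists and a ligand stood side by side in this group. Of 16 other growth factors, 6 were at least 2-fold higher and 1 lower, among them Pdgfd (59.2 CPM in members and 9.75 in the others), Pdgfa (34.0 and 7.35) and Fgf10 (22.2 and 5.76). Of 12 genes of TGF-beta ligands and receptors, 0 were at least 2-fold higher and 2 lower, Tgfb1 at 14.1 CPM in members against 37.9 CPM, and Tgfbi at 68.8 against 160.0 CPM.

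Transcription factors set Sham members apart at a few genes. Wt1, a zinc-finger factor known in the epicardium, stood at 36.3 CPM in members and 0.874 CPM in the others, and was seen in 13.0% of members and 0.302% of others. Osr1, a factor of connective tissue progenitors, stood at 431 CPM in members and 81.2 CPM in the others. Meox1, a factor of activated cardiac fibroblasts, was 4.13-fold lower in members, and Meox2 had a log2 ratio of -1.38. Of 22 factors measured, 2 were at least 2-fold higher and 2 lower. Of the 12 mesothelial and epicardial markers, 4 had any UMI in Sham members, among them Wt1, and Msln, Upk3b, Krt8, Krt18 and Krt19 had 0.

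Some matrix genes of the activated state were low in Sham members. Postn, periostin, stood at 6.66 CPM in members and 47.3 CPM in the others, and Cilp at 5.92 against 33.5 CPM. Lox, the lysyl oxidase that cross-links collagen, went the other way, at 191 CPM in members and 35.2 CPM in the others. In this list of 6 measured genes 1 was at least 2-fold higher and 3 lower. Of 13 collagens, 0 were at least 2-fold higher and 3 lower. Of the 12 steady-state fibroblast genes, Gpc3 and Inmt were higher in members, Inmt, a methyltransferase, at 1062 against 216 CPM, and Cxcl14 and Ackr3 were lower. The early stress genes were slightly higher, with 2 of 20 at least 2-fold higher, 0 lower and a median log2 ratio of 0.52.

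Markers of other cell types also differed, and their part in the differences was not tested. Of 6 macrophage markers measured, 5 were at least 2-fold lower in Sham members, with a summed level over the 11 listed markers of 107 CPM in members and 432 CPM in the others. The 8 pericyte markers summed to 107 CPM in members and 37.7 CPM in the others; 3 of 3 measured were at least 2-fold higher, Rgs5 at 43.7 against 7.97 CPM, and 1 cell held 33.8% of the members' pericyte UMIs. The 7 lymphatic endothelial markers summed to 126 CPM in members and 132 CPM in the others, with Ccl21a higher, at 30.3 against 2.56 CPM. Of the members' lymphatic endothelial UMIs, 45.9% lay in 1 cell. Without cells that carried mesothelial markers, 2 of 3 measured were at least 2-fold higher, Ccl21a and Mmrn1, and 0 lower. The 5 red cell genes summed to 1039 CPM in members and 453 CPM in the others, with 49.9% of the members' UMIs in 1 cell. The 3 Sham members called as doublets were kept in these counts. Myh11 and Mcam, of smooth muscle and pericytes, had 0 UMIs in members.

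The TAC members repeated the Sham pattern in part. Of 3516 genes, 123 (3.50%) were at least 2-fold higher in TAC members than in the other TAC fibroblasts and 62 (1.76%) at least 2-fold lower. Of the 15 genes named as higher in Sham members, 12 were at least 2-fold higher in TAC members, and of the 15 lower, 9 were at least 2-fold lower. Of these, 5 of the 12 and 2 of the 9 were under 50 CPM in both TAC groups and so outside the 3516 genes, and Shisa9 had 2 UMIs in TAC members. Without 4 TAC members that carried mesothelial markers, described next, 11 were at least 2-fold higher and 6 at least 2-fold lower. Ism1 stood at 114 CPM in TAC members and 21.8 CPM in the other TAC fibroblasts, Cpz at 63.1 and 3.76 CPM, and C4b, complement 4, at 751 and 152 CPM. Ptn, the most abundant of them, differed less in TAC, at 935 and 542 CPM. Aspn was lower again, at 123 CPM in TAC members and 625 CPM in the others. Sema3d, Hmcn2 and Ly6c1 had ratios near 0 or of the other sign in TAC, at 0.11, 0.37 and 0.37.

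4 of the 65 TAC members carried 11 or 12 of 12 mesothelial and epicardial markers, and the other 61 carried at most 3. These 4 cells had UMIs of Adam33, Vegfd and Rspo1 but none of Alkal2, Cxcl5 and Aox3. They held all 321 Msln UMIs of the TAC members, and without them 89 genes (2.57%) were at least 2-fold higher and 55 (1.59%) lower. Clu, which led the genes named in TAC members, had a log2 ratio of 0.69 without them and 5.83 with them, and Bcam had 0.82 without and 4.12 with. Cpz (3.63), Fbn2 (1.95) and C4b (2.36) kept ratios well above 1 on the log2 scale. Clu and Bcam were thus below 2-fold without the 4 cells, and these 3 genes were not. Wt1 stood at 16.2 CPM in the 61 other TAC members, all of which lacked Msln, Krt8, Krt18 and Krt19 UMIs.

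The genes lower in TAC members included those of the activated matrix. Postn stood at 242 CPM in TAC members and 1347 CPM in the other TAC fibroblasts, 5.57-fold lower (4.90 to 6.36). Thbs4, thrombospondin 4, stood at 5.17 CPM in TAC members and 164 CPM in the others, 31.6-fold lower (13.5 to 97.4), and Cst6 at 4.14 and 79.0 CPM. Of 12 activated matrix genes measured, 7 were at least 2-fold lower in TAC members and 0 higher, with a median log2 ratio of -1.34, against -0.05 over all 9027 genes measured, of which 4.34% were at least 2-fold higher and 2.71% lower. Without the 4 mesothelial-marked cells the count was 7 of 12 as well, with a median of -1.25. Of 12 complement genes 6 were at least 2-fold higher and 0 lower, among them C4b and C2, a protease of the classical pathway (121 CPM in TAC members and 9.45 in the others). This count includes the 4 mesothelial-marked cells. C2 stood at a log2 ratio of 1.10 without the 4 cells, against 3.54 with them, and C4b at 2.36 without and 2.30 with. C3, a further complement gene, stood at 13940 CPM in the 4 cells and 2974 CPM in the other 61 TAC members. All 4 red cell genes measured were at least 2-fold lower in TAC members, opposite to Sham.

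Between the operations, TAC members were set against Sham members. Of 3653 genes, 193 (5.28%) were at least 2-fold higher in TAC members and 138 (3.78%) at least 2-fold lower. Without the 4 mesothelial-marked cells 150 (4.18%) were higher and 142 (3.96%) lower. Activated matrix genes led the higher side. Cilp, a matrix protein of cartilage and injured heart, stood at 311 CPM in TAC members and 5.92 CPM in Sham members, and Postn at 242 CPM in TAC members and 6.66 CPM in Sham members, 36.3-fold higher (18.8 to 80.5). The other fibroblasts had 516 CPM of Cilp and 1347 CPM of Postn in TAC and 33.5 and 47.3 CPM in Sham. In TAC cells outside the fibroblast gate Postn stood at 219 CPM, close to its level in TAC members, and Cilp at 73.8 CPM, so the Postn level in TAC members is not told apart from that of the cells outside the gate. With the rule applied after thinning, the log2 ratio of Postn was 2.68, against 4.99. Adamtsl2 stood at 289 CPM in TAC members and 20.0 CPM in Sham members. Cfi, complement factor I, had 55 UMIs (56.9 CPM) in TAC members and 0 in Sham members, at least 25.6-fold higher when 3 UMIs over all Sham members are taken as the limit of detection. Of 10 activated matrix genes measured, 9 were at least 2-fold higher in TAC members and 0 lower, against 6.87% higher and 5.49% lower over 9102 genes.

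**Figure D5:**
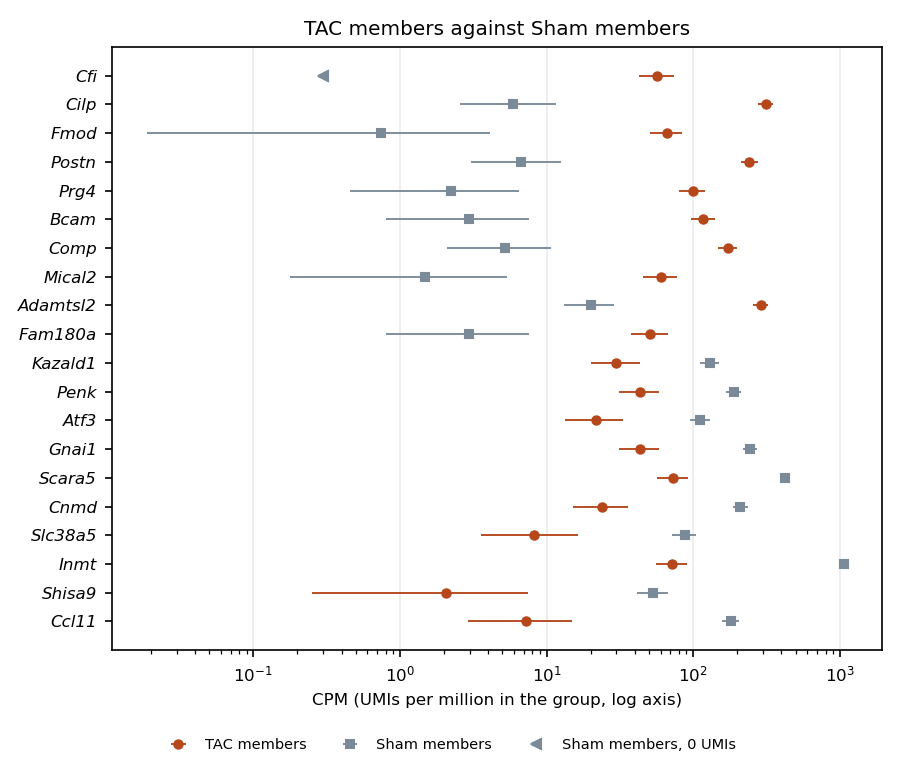
Points give CPM on a log axis in TAC members and Sham members for the 20 genes named by rule, with exact 95% Poisson intervals for counting error; the arrowhead marks 0 UMIs and is placed arbitrarily. Cilp stands at 311 CPM in TAC members and 5.92 CPM in Sham members, and Inmt at 71.4 CPM in TAC members and 1062 CPM in Sham members.

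Of the 12 genes of the eotaxin and steady-state fibroblast list, 5 were at least 2-fold lower in TAC members than in Sham members and 2 higher, with a median log2 ratio of -0.91, against 5.49% lower and 6.87% higher over all genes measured. The 2 higher were Apod (2.97), an apolipoprotein, and Cxcl14 (1.31), a chemokine. Without the 4 mesothelial-marked cells 6 were lower and 2 higher. Inmt stood at 71.4 CPM in TAC members and 1062 CPM in Sham members, 14.9-fold lower (11.7 to 19.2). Ccl11, eotaxin, stood at 7.24 CPM in TAC members and 179.8 CPM in Sham members, 24.8-fold lower (11.9 to 62.4). This difference was not particular to members: in gated fibroblasts with 0 rule genes Ccl11 stood at 4.29 CPM in TAC and 140 CPM in Sham. With at least 4 rule genes the log2 ratio of Ccl11 was -1.43, against -4.46. Scara5, a ferritin receptor, stood at 72.4 CPM in TAC members and 425 CPM in Sham members. Of the 15 genes named as higher in Sham members than in the other Sham fibroblasts, 7 were at least 2-fold lower in TAC members than in Sham members, 1, C4b, at least 2-fold higher (751 against 103 CPM), and 7 within 2-fold. The 15 had been named for high levels in these same Sham members, so lower levels in TAC members were in part set by that choice. Without the 4 mesothelial-marked cells 8 were lower. Among the lower ones were Slc38a5 at 8.27 against 87.3 CPM and Gnai1 at 43.4 against 243 CPM. Rspo3 was seen with 2 UMIs in TAC members and 52 in Sham members, 2.07 against 38.5 CPM. The early stress genes were lower in TAC members for 6 of 20 and higher for 0, with a median log2 ratio of -0.82, and interferon-responding genes were higher for 10 of 13 and lower for 1. Without the 4 mesothelial-marked cells, 7 of 13 interferon genes were higher. Igkc, an immunoglobulin chain made by B cells, was at 31.0 CPM in TAC members and 0.740 CPM in Sham members, and the 5 red cell genes were at least 2-fold lower in TAC members. The part of depth and of these marker genes in the differences was not tested.

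The receptors of the ligands differed in where they were seen. Flt4, the receptor of Vegfd, stood at 713 CPM in TAC lymphatic endothelial cells and 759 CPM in Sham lymphatic endothelial cells, and at 0 CPM in TAC members and 2.22 CPM in Sham members. Lgr4, a receptor of R-spondins such as Rspo1, was seen at low levels in fibroblasts as well, at 9.31 CPM in TAC members (10.8% of cells) and 11.7 CPM in the other TAC fibroblasts (12.5%). Cxcr2, the receptor of Cxcl5, stood at 541 CPM in the TAC class of neutrophils and monocytes, which had 64 cells. Alk, the receptor of Alkal2, had 0 UMIs in every class listed in both libraries, and Ltk, a further one, had 2 UMIs in Sham B cells and 1 in Sham macrophages. Flt4 and Cxcr2 were thus highest in lymphatic endothelial and myeloid cells among the classes listed, whereas Alk was not detected at this depth.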

How the data were processed

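Raw UMI counts per gene and cell, whole numbers that were not normalized, were deposited by the authors as a 10x matrix for each library. Cell Ranger 3.1.0 made them, per the file headers, and the build was mm10, per the submitters' processing notes; for aligner settings and annotation the entry is "not given in the sources used here". Cells with at least 500 genes, 1000 UMIs and at most 15% mitochondrial UMIs were kept (8000 of 8901 TAC barcodes and 7964 of 8426 Sham barcodes, with 96003109 and 42490230 UMIs in all). UMIs were summed over cells, scaled to the same total in every group (CPM), and compared as the log2 ratio of CPM + 1, with genes of at least 50 CPM in either group (10 CPM for gene lists) and "at least 2-fold" as the cut. Intervals are exact and cover counting error only. A cell was thinned by drawing 3800 UMIs without replacement. Neighbours were 15 cells on 30 principal components (scanpy 1.11.5, scikit-learn 1.9.0, igraph 0.11.9). Doublets were kept in the main counts, and Scrublet calls were removed in an alternative. The members and gene lists were chosen with earlier results of these data known. Named genes were the 15 largest ratios in each direction (10 between operations) among genes with at least 50 CPM, seen in at least 10% of cells of the higher group and with at least 10% of the CPM they have outside the gate, with mitochondrial, ribosomal, haemoglobin, Y-linked and gate genes, Xist and unnamed gene models left out; up to 4 genes of each list and the receptors were also named; those of TAC members against other TAC fibroblasts were chosen after their values were seen. The ratio step was tested on simulated sums. Gene positions are from GENCODE M21, and promoter sequences are from RefSeq.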

Additional observations from a re-analysis of the deposited data

How the results depend on the processing

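With 1 library for each operation no replicate could be left out. No paired analysis was possible because each group holds 1 library. The 30 genes named in Sham members kept their direction and 2-fold size under all 10 alternatives tried, but those named in TAC members moved more. Of the 20 named against the other TAC fibroblasts, 15 moved by over 1.5-fold with at least 4 rule genes and 14 with the rule after thinning, and of the 20 named against Sham members, 10 and 13 did. The shares and gene counts below moved by over 1.5 times or past their interval. Asking for at least 4 rule genes left 0.258% of TAC and 1.81% of Sham gated fibroblasts as members and gave 185 genes higher and 204 lower in TAC members than in the other TAC fibroblasts, 121 lower in Sham members than in the other Sham fibroblasts, 376 lower in TAC than in Sham members, and 73 list genes lower in TAC members than in the others. Applying the rule after thinning left shares of 0.212% (TAC) and 2.42% (Sham), 363 higher and 303 lower in TAC members than in the others, 419 higher and 376 lower in TAC than in Sham members, 73 list genes lower in TAC members, 4.24% of neighbours as members in TAC, and a median held-out log2 ratio of -1.25 in TAC. With no filter on low values the counts were 648 higher and 732 lower (Sham members against others), 950 and 740 (TAC members against others) and 1146 and 993 (TAC against Sham members). With lists cut at 50 CPM they were 38 higher in Sham members, 36 higher and 26 lower in TAC members, and 59 higher and 35 lower in TAC than in Sham members. Reversed values were Clu, TAC members against others, at -0.55 with at least 4 rule genes, and Comp, TAC against Sham members, at -0.78 with the rule after thinning. TAC members are few (65, and 11 after thinning), and the cause of each change was not tested. Leaving out mesothelial-marked cells and changing the cluster graph were chosen after seeing the data.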
